A study of Homo sapiens with 4 samples.

Results

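The genes of the cytosolic ribosomal proteins were examined in GATA1 knockdown clones of Meg-01, a human megakaryoblastic leukemia cell line. Members were the non-control array probes whose gene name is RPL or RPS followed by a number, or RPLP0, RPLP1, RPLP2 or RPSA, with pseudogene names, the RPS6 kinases and the RPS4Y genes left out. They made up 207 of 41000 probes and carried 85 gene names.

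GATA1 5-13 and GATA1 4-14 each carry a lentiviral shRNA against GATA1 and were each grown from a single soft agar colony of Meg-01. The comparator, GATA1 Neg, is a pool of Meg-01 cells carrying a lentivirus with a negative control shRNA, so all the cells had been infected. Each clone was hybridized against GATA1 Neg on 2 two-colour Agilent arrays, with the clone in red (Alexa647) on replicate 1 and in green (Alexa555) on replicate 2. All values below are log2 ratios of the clone over GATA1 Neg unless another quantity is named. The titles and sources name Meg-01 while the extraction text has CMK, which is a different megakaryoblastic line, and the arrays were taken here as Meg-01. The targeted gene encodes a DNA-binding protein that directs the formation of red cells and platelets.

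A ribosome consists of a small subunit, which reads the mRNA, and a large subunit, which joins the amino acids, and each is built from ribosomal RNA and a set of RPS or RPL proteins. Their mRNAs are among the most abundant of a dividing cell and typically begin with a 5′ terminal oligopyrimidine (TOP) tract, a run of C and T at the first bases of the transcript through which their translation is adjusted together. Loss of 1 copy of several of these genes causes Diamond-Blackfan anemia, in which red cell precursors fail, and blood cell formation is known to be sensitive to the dose of these proteins and to GATA1.

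The lineage markers were those of the labelled cell in part. Of 8 megakaryocytic marker genes, 6 had a probe well above background in GATA1 Neg on all arrays, including ITGA2B, ITGB3, GP9 and GP1BA, while PF4 and VWF had none. Of 6 markers of other cell types, CD3E alone had such a probe. GATA1 itself, the targeted gene, measured -0.21 and -0.34 in GATA1 5-13, and -0.43 and -0.58 in GATA1 4-14, in the order of the replicates. Its signal was below GATA1 Neg on every array, and the mean of the clones was -0.39 ± 0.16 (SD, n = 2 clones) with an adjusted p of 0.605 in limma.

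Of the 207 member probes, 206 had a value on all 4 arrays and 200 of these were well above background in both RNAs throughout. A gene value is the mean over such probes, and 82 genes had one, among them all 46 core genes of the large subunit, 29 of 31 of the small subunit and 7 of the 8 paralogs with an L suffix in the name. The 3 genes without a value were RPL3L and RPSA, whose single probes were not well above background, and RPS6, whose single probe carried an outlier mark on 1 array. The RPSA probe is named for a cDNA accession, so its dim signal does not show that the gene is silent.

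No ribosomal protein probe passed an adjusted p of 0.05 when limma tested whether the 2 clones' mean differed from 0, and over all 40974 probes tested the share called was 0%. At an unadjusted p under 0.05 there were 4 lower and 2 higher member probes of 206, against 4.04% lower and 3.38% higher of all probes. The 4 lower were a pair of RPL13A probes and 1 probe each of RPS27 and RPL24, and the 2 higher belonged to RPL28 and RPL26L1. Their mean log2 ratios lay between -0.26 and 0.26, and they are named after their values were seen. None of the 206 had an unadjusted p of 0.005 or less, against 0.574% lower and 0.327% higher of all probes. A difference in 1 clone alone widens the spread between clones on which this test rests, and the clones are also described separately below, without a test. The 2 arrays of a clone compare it with GATA1 Neg with the dyes exchanged, and they may share RNA preparations. No array measures how GATA1 Neg varies.

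The largest difference from GATA1 Neg was that of RPL22L1, a paralog that can take the place of RPL22 in the large subunit. Its log2 ratios in GATA1 5-13 were 3.12 and 2.97, and in GATA1 4-14 they were 0.04 and 0.31. The signal in GATA1 5-13 was thus 8.28-fold that of GATA1 Neg in the mean of its arrays, while in GATA1 4-14 it was 1.13-fold. In RNA from bulk cells, a higher level per cell and more cells with the transcript cannot be told apart. On the log2 level scale the probe lay at 14.24 in GATA1 Neg over all 4 arrays, 17.02 in GATA1 5-13 and 14.68 in GATA1 4-14. The GATA1 Neg level averages the arrays of both clones, so these levels do not subtract to the log2 ratios above. It was the highest ribosomal protein gene on both arrays of GATA1 5-13, and 3.05 was the only clone value of any member probe beyond 1 in size. The adjusted p of the mean of the clones was 0.721, with a mean of 1.61 ± 2.03 (SD, n = 2 clones).

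RPL22 itself, a large subunit protein that is not needed for translation as such and is known to repress the mRNA of its paralog RPL22L1, lay below GATA1 Neg in the same clone. Averaged over its 4 probes it measured -0.95 and -0.89 in GATA1 5-13, and 0.00 and 0.08 in GATA1 4-14. Every one of the 4 probes lay between -1.13 and -0.82 on the arrays of GATA1 5-13. On those of GATA1 4-14 they lay between -0.06 and 0.20, and all 4 measured the same RNAs. The gene value in GATA1 5-13, -0.92, left 52.9% of the GATA1 Neg signal. Adjusted p-values of the 4 probes in limma ran from 0.743 to 0.765, and the difference between the clones was not tested.

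**Figure D1:**
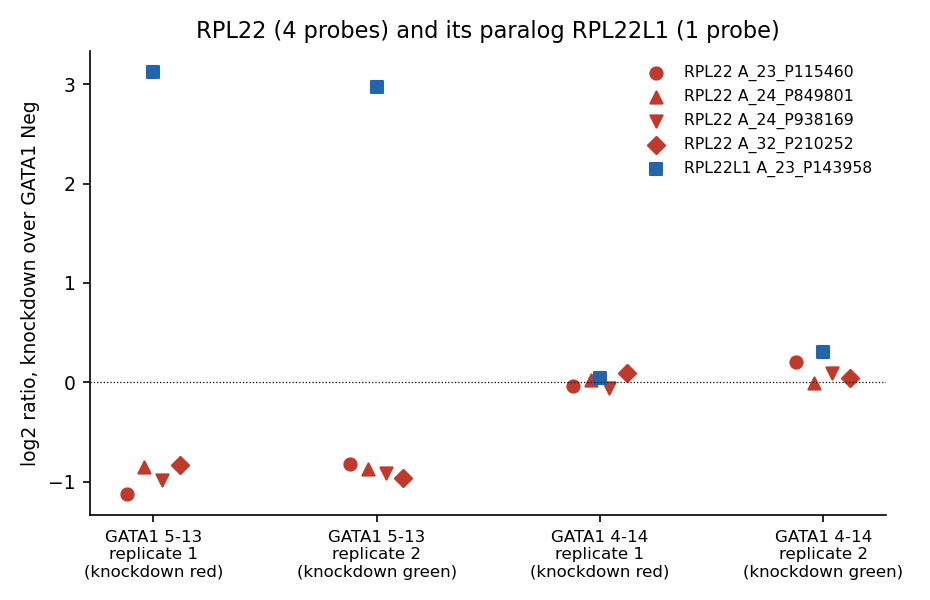
Log2 ratio of the clone over GATA1 Neg (vertical axis) of each of the 4 RPL22 probes (red) and the RPL22L1 probe (blue squares) on each of the 4 arrays (horizontal axis). In GATA1 5-13 RPL22L1 sits at 3.12 and 2.97 and all RPL22 probes lie between -1.13 and -0.82, and in GATA1 4-14 all lie between -0.06 and 0.31.

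The RPL22L1 probe (A_23_P143958, hg18 chr3:172066898-172066957) is on 3q, and RPL22 probes such as A_23_P115460 (hg18 chr1:6169178-6169237) are on 1p. Within 1 Mb of the RPL22L1 probe, 19 other genes had values in GATA1 5-13 from -0.29 to 0.42, with a median of 0.09. The value of RPL22L1 was thus outside the range of its neighbours. Within 1 Mb of RPL22, the other 19 genes ranged from -0.86 to 0.26 with a median of -0.34. Of them, 17 were below 0, against 51.8% of all genes. RPL22 was lower than all of these neighbours.

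The start regions of this pair, of RPL11 and of 2 further paralogs are shown because they differ in the TOP tract. Each runs from 60 bases before to 20 bases from the annotated start (RefSeq, GRCh38.p14, 5′ to 3′ on the gene's strand). Capitals mark a run of C and T of at least 5 bases, counted from the first suitable C within 3 bases of the start. Any C or T directly before that C is left in lower case and is not counted.
RPL22 (chr1:6199576-6199655, minus strand): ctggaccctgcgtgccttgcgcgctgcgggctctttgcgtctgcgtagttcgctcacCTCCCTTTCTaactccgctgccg
RPL22L1 (chr3:170870176-170870255, minus strand): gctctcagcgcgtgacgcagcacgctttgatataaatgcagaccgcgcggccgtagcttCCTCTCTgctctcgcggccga
RPL11 (chr1:23691746-23691825, plus strand): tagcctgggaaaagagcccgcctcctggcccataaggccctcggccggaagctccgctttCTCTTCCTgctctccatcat
RPS27L (chr15:63157458-63157537, minus strand): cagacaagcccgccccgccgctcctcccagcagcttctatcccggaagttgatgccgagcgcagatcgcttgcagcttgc
RPL26L1 (chr5:172958820-172958899, plus strand): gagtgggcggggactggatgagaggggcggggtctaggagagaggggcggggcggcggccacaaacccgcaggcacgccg
The marked run spans 10 bases in RPL22, 7 in RPL22L1 and 8 in RPL11. In all 3 the unbroken stretch of C and T begins before the capitals, so these lengths do not rank the full tracts. No such run was found at the starts of RPS27L and RPL26L1. RPL11 has another annotated start in the table (window chr1:23691719-23691798), not shown, at which no such run was found. The other RPL26L1 window in the table has none either. Of the 85 member names, 68 had a start window in the table, and 53 of them (77.9%) had the run at a start, against 16% of all 27305 genes with a window. In the whole windows, from 250 bases before to 50 after the start and on both strands, CCGGAA was found for 39 of the 68 genes (57.4%, against 20.1% of all genes). GATAA, the core to which GATA factors bind, was found for 12 (17.6%, against 26.6%). These are counts of letters and do not show binding.

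RPL5 and RPL11, which enter the large subunit together with the 5S ribosomal RNA and can restrain MDM2, the inhibitor of p53, were also low in GATA1 5-13. RPL5 (2 probes) gave -0.44 and -1.42 in GATA1 5-13, and 0.51 and -0.58 in GATA1 4-14. RPL11 (1 probe) gave -0.18 and -1.22, and then 0.73 and -0.66. Both genes were negative on both arrays of GATA1 5-13 and of mixed sign in GATA1 4-14, with clone values of -0.93 and -0.70 against -0.03 and 0.03.

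RPL5, RPL22 and RPL11 were among the 4 lowest ribosomal protein genes in GATA1 5-13, and with RPL22L1 they were among the 5 with the largest differences between the clones. All 3 lie on 1p.

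RPL10L, a retrocopy of RPL10 mostly used in the testis, gave -0.59 and -0.62 in GATA1 5-13, and 0.11 and -0.03 in GATA1 4-14. RPL10, on Xq, gave -0.32 and -0.81, and then 0.36 and -0.26, over 4 probes. The clone values of the pair were close, at -0.60 and -0.57 in GATA1 5-13 and 0.04 and 0.05 in GATA1 4-14. Both transcripts are nearly identical in sequence, and whether the RPL10L probe measured RPL10 RNA was not tested.

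Past a 1.5-fold difference in GATA1 5-13, with the same sign on both its arrays, were 5 lower ribosomal protein genes (RPL5, RPL22, RPL11 and RPL10L among them) and 1 higher (RPL22L1), that is 6.1% and 1.22% of 82. Over all 17298 genes with a value the shares were 3.96% and 2.47%. In GATA1 4-14, 0 ribosomal protein genes passed the same rule in either direction, against 1.32% lower and 1.19% higher of all genes.

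**Figure D2:**
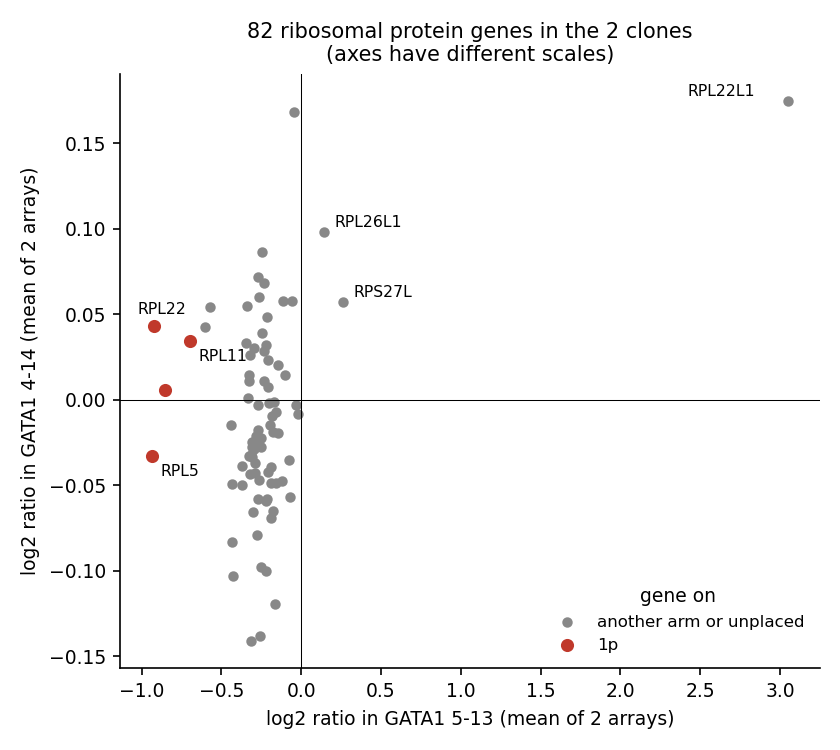
Log2 ratio over GATA1 Neg in GATA1 5-13 (horizontal axis) and GATA1 4-14 (vertical axis, on a finer scale), each the mean of 2 arrays, for the 82 ribosomal protein genes (points, red for those on 1p). RPL22L1 stands apart at 3.05 in GATA1 5-13, the genes of 1p lie between -0.93 and -0.70 there, and all genes lie between -0.14 and 0.17 in GATA1 4-14.

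As a family, the ribosomal protein genes lay slightly below GATA1 Neg in GATA1 5-13, with a median of -0.25 over 82 genes against -0.01 over all genes. Of the 82, 79 were below 0 in the mean of its arrays and 3 above, against 51.8% and 48.2% of all genes. In GATA1 4-14 the family median was -0.02, against 0.00 over all genes, with 51 genes below 0 and 31 above, against 49.4% and 50.6%. The values of GATA1 4-14 spanned only -0.14 to 0.17. The 3 genes above 0 in GATA1 5-13 were RPL22L1, RPS27L and RPL26L1, all of them paralogs.

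These medians are averages of arrays that disagreed. The median of the 82 genes was 0.14 on replicate 1 and -0.63 on replicate 2 of GATA1 5-13, and 0.37 and -0.41 on replicates 1 and 2 of GATA1 4-14. In both clones the family median was above 0 where the clone was in red and below 0 where it was in green. RPL4, named after its values were seen, was among the genes that alternated most, with 0.49 and -0.94 in GATA1 5-13 and 0.55 and -0.75 in GATA1 4-14.

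The sign differed between the arrays of GATA1 5-13 for 58 of the 82 genes, against 23% of all genes, and between those of GATA1 4-14 for 75, against 37.2%. Higher on replicate 1 and lower on replicate 2 in both clones were 57 genes, or 69.5%, against 7.58% of all genes. The part of each value that turned with the dyes (replicate 1 minus replicate 2, over 2) had a median of 0.38 in each clone, larger than the clone medians themselves. Below 0 on both arrays of GATA1 5-13 were 21 genes (25.6%), against 39.4% of all genes, and above 0 on both were 3, against 37.6%. In GATA1 4-14 the counts were 0 and 7, against 31.3% and 31.5%. A dye effect cancels in a clone's mean where it is equal in both orientations, and its part in the median of -0.25 was not tested.

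**Figure D3:**
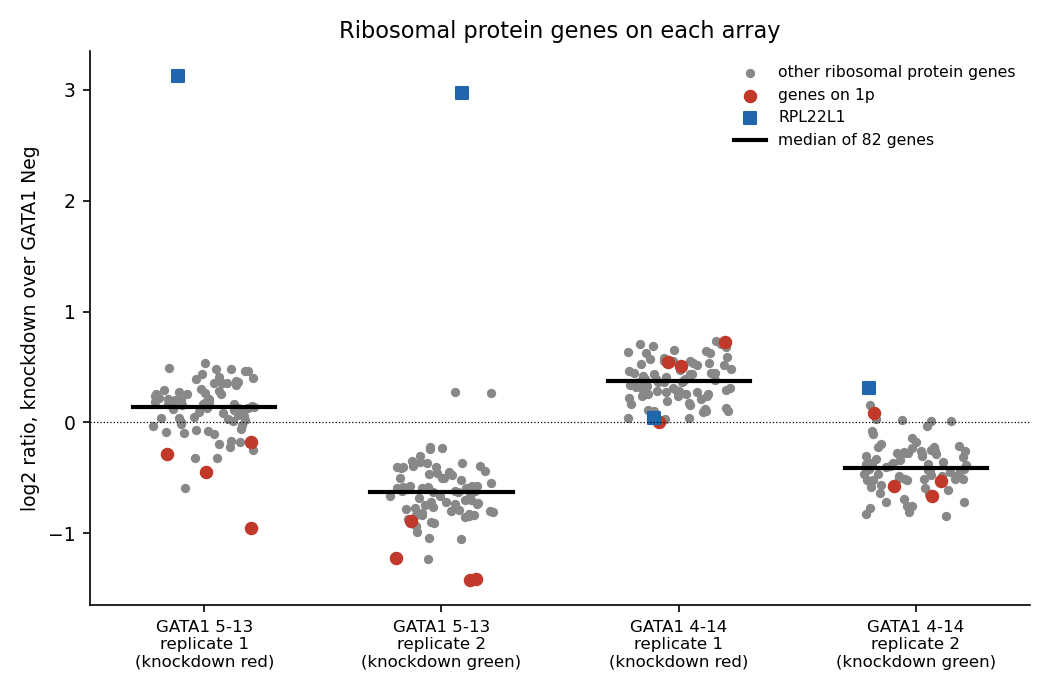
Log2 ratio over GATA1 Neg (vertical axis) of the 82 ribosomal protein genes on the 4 arrays (horizontal axis, with the dye of the clone), with points for genes, red for the 4 genes of 1p, a blue square for RPL22L1 and a bar for the median. The medians are 0.14, -0.63, 0.37 and -0.41, so that the family is high where the clone is red and low where it is green.

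The choice of normalization moved the size of the shift. With Agilent's own log ratios, which correct the dyes by another method, the array medians were 0.00 and -0.24 in GATA1 5-13 and 0.10 and -0.03 in GATA1 4-14. The clone medians were then -0.13 and 0.02, and 39 genes were below 0 on both arrays of GATA1 5-13, against 21 with loess. With centring on the median alone, the array medians ran apart to 1.01, -1.57, 1.23 and -1.24. The median of the 1p members in GATA1 5-13 was -0.89 with loess, -0.78 with Agilent's log ratios and -0.86 with median centring.

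Ribosomal protein probes are very bright, and the bright probes of other genes alternated with the dyes as well. The mean log2 brightness of both channels had a median of 16.67 over the member probes against 8.01 over all probes, and 187 of 206 member probes (90.8%) were in the brightest 10% of all probes. No spot was marked as saturated on any of the 4 arrays, which were read with an extended dynamic range. For the 511 other probes at a log2 brightness of 16 or more, the array medians were 0.13 and -0.45 in GATA1 5-13 and 0.27 and -0.31 in GATA1 4-14, and those of the 162 members there were 0.17, -0.67, 0.40 and -0.43. The medians of both sets were above 0 on replicate 1 and below 0 on replicate 2 of each clone, farther from 0 for the members, and this difference was not tested.

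The clone medians at that brightness were -0.25 and -0.02 for the members and -0.16 and -0.01 for the other probes. Of those 511 probes, 109 have a description that names a ribosomal protein, and 239 carry no gene symbol of their own. The 258 probes in neither class had array medians of 0.22 and -0.32 in GATA1 5-13, and 0.26 and -0.30 in GATA1 4-14, with clone medians of -0.08 and -0.01. In the class from 15 to 16, 16 member probes had medians of -0.19 and -0.24 on the arrays of GATA1 5-13, with the same sign under both dyes, while 836 other probes had -0.04 and -0.01. Those 16 include 3 of the RPL22 probes.

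**Figure D4:**
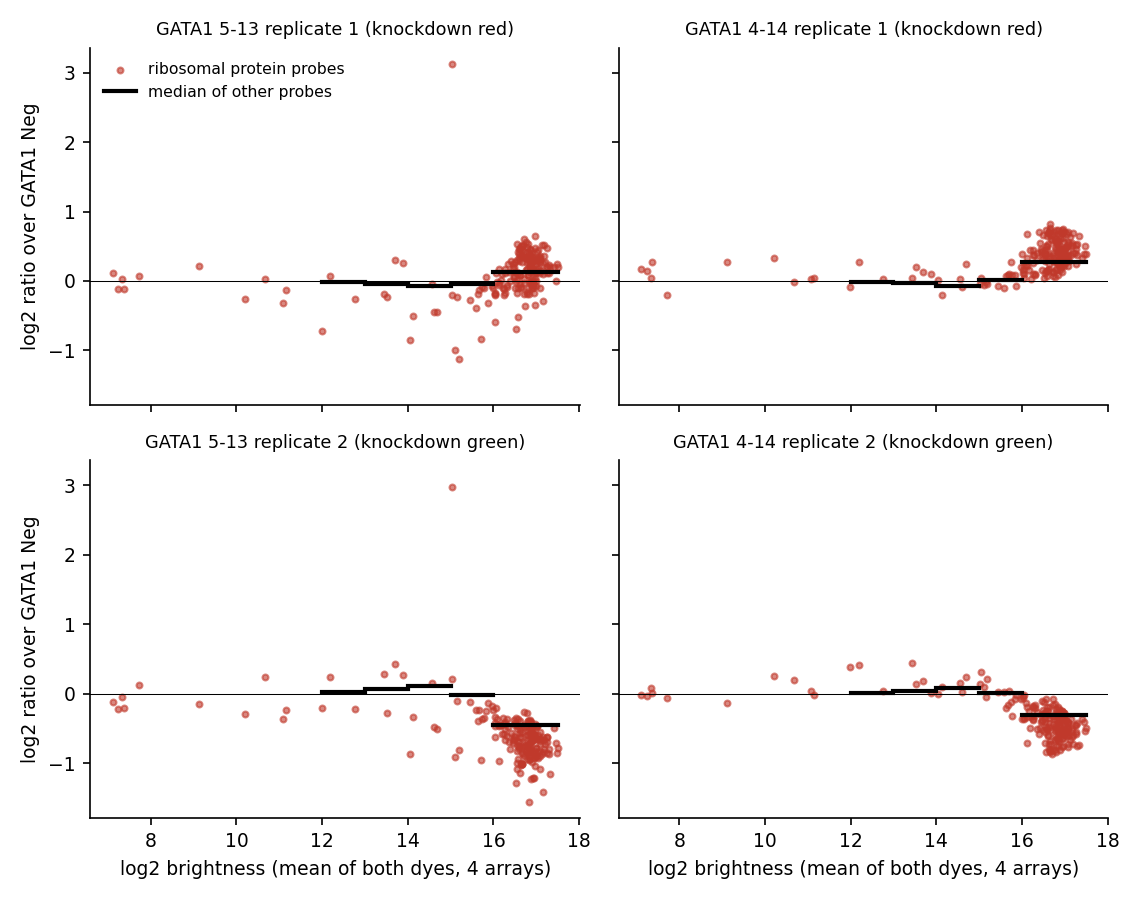
Log2 ratio over GATA1 Neg (vertical axis) against log2 brightness (horizontal axis) of the ribosomal protein probes well above background (red points) on each array, with black bars for the median of all other such probes in classes of brightness from 12 upwards. At 16 and above both the members and the other probes lie above 0 on replicate 1 and below 0 on replicate 2 of each clone.

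Large and small subunit genes had close medians, and their difference was not tested. The 46 core genes of the large subunit had medians of -0.26 in GATA1 5-13 and -0.02 in GATA1 4-14, and the 29 of the small subunit had -0.25 and -0.01. The lowest large subunit value in GATA1 5-13 was that of RPL5, and the highest core value was -0.02, of RPS24. The 19 genes known for Diamond-Blackfan anemia that were on the array, RPS19 among them, had medians of -0.22 and -0.04, and 4 of the 19 were below 0 on both arrays of GATA1 5-13, against 39.4% of all genes. RPS19, named after its values were seen, had clone values of -0.21 and -0.04.

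The stalk proteins RPLP0, RPLP1 and RPLP2, which recruit the elongation factors to the large subunit, alternated with the dyes in both clones. RPLP1 gave 0.53 and -0.91 in GATA1 5-13, and 0.69 and -0.83 in GATA1 4-14. RPLP2 gave 0.48, -1.04, 0.70 and -0.75 in the same order. RPLP0 gave 0.14, -0.75, 0.43 and -0.48. None of the 3 had the same sign on both arrays of either clone. The clone values of RPLP1, RPLP2 and RPLP0 were -0.19, -0.28 and -0.31 in GATA1 5-13 and lay between -0.07 and -0.02 in GATA1 4-14.

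The paralogs with an L suffix were less bright than the family, with a median log2 brightness of 14.43. All 7 had the same sign on both arrays of GATA1 5-13, where the sign differed for 23% of all genes. Besides RPL22L1, RPS27L, a p53-responsive relative of RPS27, gave 0.26 and 0.27 in GATA1 5-13 and 0.10 and 0.01 in GATA1 4-14. RPL26L1 gave 0.02, 0.27, 0.04 and 0.16, although its 3 probes ranged from 0.01 to 0.37 in GATA1 5-13. These 3 were the only ribosomal protein genes above 0 on all 4 arrays, 3.66% of 82 against 16.7% of all genes, and none was below 0 on all 4, against 17.2%.

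The other paralogs lay below GATA1 Neg in GATA1 5-13. RPL39L gave -0.32 and -0.37 there and 0.03 and 0.03 in GATA1 4-14, and RPL7L1 gave -0.19, -0.23, 0.04 and 0.01. RPL36AL gave -0.06, -0.37, 0.10 and -0.21. These 3 differed less from GATA1 Neg than RPL10L did.

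By chromosome arm, the low values of 1p were shared in direction by the rest of the arm. The 4 ribosomal protein genes of 1p had clone medians of -0.89 and 0.02, and the 929 other genes of 1p had -0.31 and 0.00. The other genes of 1p had nearly equal medians on the 2 arrays of GATA1 5-13, -0.31 and -0.31, so their shift did not turn with the dyes. Of them, 738 were below 0 on both arrays of that clone, against 39.4% of all genes. Genes elsewhere with a known arm, 16128 in number, had a median of 0.00. Low medians in GATA1 5-13 were not confined to 1p. On 18p, which has no ribosomal protein gene with a value, 69 genes had medians of -0.46 and -0.42 on its arrays. On 8p, 236 genes had -0.15 on each array. In the other clone the medians of 18p and 8p were above 0, at 0.03 and 0.07. On 21q the median was -0.12 in GATA1 5-13 and lower in the other clone, at -0.19, so that shift was not particular to GATA1 5-13.

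In GATA1 5-13, the ribosomal protein genes of 1p lay below the median of the members elsewhere, -0.25, as the other genes of 1p lay below the median of the genes elsewhere. Within 1 Mb, the other genes had medians of -0.34 around RPL22, -0.42 around RPL11 and -0.44 around RPL5. Below 0 were 17 of 19, 27 of 27 and 16 of 19 of them, against 51.8% of all genes. The RPL11 probe (hg18 chr1:23893760-23893819) lies between those of RPL22 and RPL5 (hg18 chr1:93071718-93071777 for A_23_P12140). The difference of the members of 1p from those elsewhere was not tested.

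On the other 30 arms with a ribosomal protein gene, the median of the members in GATA1 5-13 ran from -0.37 on 19p to -0.02 on 10q, while the other genes of those arms had medians from -0.04 to 0.04. The members were below the other genes of their arm on all 31 arms in GATA1 5-13 and on 21 of 31 in GATA1 4-14. In GATA1 4-14 the members' medians ran from -0.14 on 1q, with RPS27 alone, to 0.09 on 5q.

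**Figure D5:**
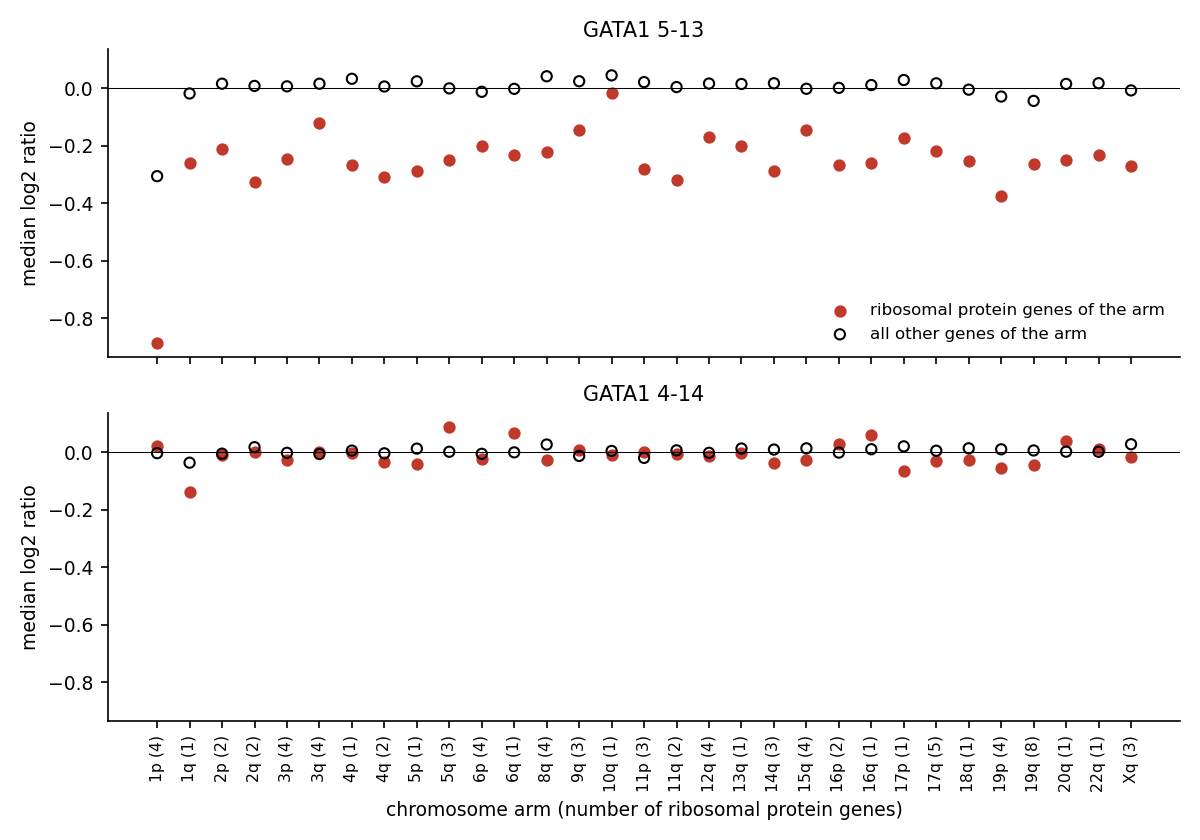
Median log2 ratio over GATA1 Neg (vertical axis) of the ribosomal protein genes (red) and of all other genes (open circles) on each of the 31 chromosome arms that carry a ribosomal protein gene (horizontal axis, with the number of such genes), in GATA1 5-13 (top) and GATA1 4-14 (bottom). On 1p in GATA1 5-13 the members lie at -0.89 and the other genes at -0.31. On the other arms shown, the medians of the other genes in that clone lie between -0.04 and 0.04.

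Genes of related function were also measured. Other mRNAs with a TOP tract, 13 genes with a median log2 brightness of 16.49, had medians of -0.24 in GATA1 5-13 and -0.05 in GATA1 4-14. EEF1A1, the elongation factor that brings tRNA to the ribosome, is named after its values were seen. It alternated as the family did, with 0.33, -0.998, 0.68 and -0.67. EIF4B, an initiation factor, had instead -0.49, -0.39, -0.11 and -0.08, below GATA1 Neg on every array. NAP1L1, the highest of this list by the mean of the clones (0.14), had -0.15, -0.06, 0.35 and 0.41.

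The mitochondrial ribosome list held 77 names, at a median log2 brightness of 13.69, with medians of 0.06 and 0.01. It includes a pseudogene name, MRPL42P5, at -0.15 and -0.08 in GATA1 5-13 and GATA1 4-14. The 38 genes of ribosome biogenesis had medians of 0.04 and 0.04. The lowest and highest mitochondrial ribosome genes by the mean of the clones were MRPL16 (-0.31) and MRPS17 (0.29). The 3 mitochondrial ribosome genes of 1p, MRPL20, MRPL37 and MRPS15, were all below 0 on both arrays of GATA1 5-13, against 39.4% of all genes. Their median was -0.39, against 0.06 for the 74 elsewhere. The ribosome biogenesis list had 1 gene on 1p, EBNA1BP2, with -0.04 and -0.06 on those arrays. Of ribosome biogenesis genes, GNL3, a nucleolar GTPase, had the highest mean (0.21) and RRN3, a factor of RNA polymerase I, the lowest (-0.12). None of these lists had a probe past an adjusted p of 0.05. At an unadjusted p under 0.05 the mitochondrial ribosome had 3 lower and 2 higher of 108 probes, and ribosome biogenesis 1 lower and 3 higher of 68, against 4.04% lower and 3.38% higher of all probes.

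Probes of a gene agreed closely in most cases. For the 55 genes with several probes, the range between probes was 0.11 in the median for GATA1 5-13, and 0.08 for GATA1 4-14. The widest were RPS2, from -0.46 to 0.03 over 6 probes in GATA1 5-13, and RPL31, from -0.43 to 0.05 over 3. RPL28 had 1 probe at -0.25 and another, less bright, at 0.15.

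Some probes may measure a copy elsewhere. In 9 member probes the position given on the array is not on the chromosome of the gene. They are 5 of 14 RPL21 probes (placed on chromosome 10, gene on 13), 1 RPL17 probe (on 17, gene on 18), both RPL36A probes (on 11, gene on X) and 1 RPS10 probe (on 11, gene on 6). The RPL21 probes placed on chromosome 10 had values in GATA1 5-13 from -0.22 to -0.18, inside the range of the other RPL21 probes. The RPS10 probe, on a dim EST, gave -0.01 and 0.08 in the clones, against -0.19 and -0.04 for the gene. Ribosomal protein genes have many near-identical processed pseudogenes, so the split between a gene and its copies is uncertain throughout.

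The RPS6 probe, with its marked spot kept, gave 1.27 and -0.998 in GATA1 5-13 and 0.56 and -0.72 in GATA1 4-14. It alternated with the dyes like the rest of the family, and its clone values were 0.14 and -0.08.

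The study combined arrays in Rosetta Resolver with an error-weighted algorithm, and a related fit was made here. Weighting each array's Agilent log ratio by its own error gave 7 lower and 1 higher member probes of 206 at an adjusted p of 0.05, against 4.31% lower and 4.02% higher of all probes. Among the 8 were all 4 RPL22 probes, both RPL5 probes and RPL22L1. This approach counts the 2 arrays of a clone as independent and takes no account of the spread between clones, and the values behind these calls are those of GATA1 5-13. In GATA1 4-14 RPL22, RPL5 and RPL22L1 were at 0.04, -0.03 and 0.17. The 2 limma fits that took the 4 arrays as 4 values called 0 member probes, against 0.657% of all probes with the replicate number as a block and 3.03% without it.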

How the data were processed

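Total RNA of both clones and of GATA1 Neg was hybridized on 4 arrays of 1 slide. The deposited intensity values (mean spot signal and median local background of both dyes) were extracted by the authors with Agilent Feature Extraction 9.5.3.1 and are linear and not normalized, with probe positions on hg18. The deposited log10 ratios were made by that program from dye-normalized signals. The value table of the series holds the same log10 ratios as deposited by the authors, already turned to clone over GATA1 Neg (largest difference 4.97e-06). The authors combined arrays with Rosetta Resolver, which was not used here.

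Intensities were corrected with normexp (offset 50) and loess within each array in limma 3.58.1 (R 4.3.3). Control spots and outlier-marked spots were left out, spots of a probe were averaged, and each clone's 2 arrays gave 1 mean (n = 2). limma's moderated test against 0 was two-sided, p-values were adjusted over 40974 probes by Benjamini-Hochberg, and the procedure was first tested on simulated data. A clone alone has no test. Replicates may be technical, precision is limited by how few arrays there are, and outlier marks covered 135 to 152 of 43376 non-control spots an array. Between 61.6% and 66.4% of these spots were well above background in a channel.

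A gene value is the mean of its probes well above background in both channels of all 4 arrays. Arms were split at the hg18 centromere, using probes whose chromosome is that of the gene in RefSeq (85 of 85 names matched), and RPL36A was left unplaced. Named genes were the 8 lowest and 8 highest of those whose 4 arrays had 1 sign (0 and 3 qualified), the 5 with the largest difference between clones, probes with an unadjusted p up to 0.005 or a clone value beyond 1, paralogs with an L suffix, stalk and 5S RNP members, probes placed elsewhere and GATA1, and others are said to be named after their values were seen, as are the extremes of each list. Some genes that this rule would name are not reported here. Members and lists were chosen with earlier results of these data known. Alternatives were other background, dye and spot settings, other fits, leaving out each array or clone, and 2 sets of members chosen after seeing the data. Python 3.11.15 with pandas 2.3.3 was used for the summaries.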

Additional observations from a re-analysis of the deposited data

Results flagged for a closer look

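For 3 of the named ribosomal protein genes, both arrays of GATA1 5-13 lay on one side of GATA1 Neg and both arrays of GATA1 4-14 on the other, and the difference was not tested. RPL22 was lower in GATA1 5-13 by a log2 difference of -0.96 between the clones (values -0.92 and 0.04). RPL39L differed by -0.38 (values -0.34 and 0.03), and RPL7L1 by -0.23 (values -0.21 and 0.02). On the arrays of GATA1 4-14 all 3 genes were between 0.00 and 0.08. Over all genes, 39.4% were below 0 on both arrays of GATA1 5-13 and 31.5% above 0 on both of GATA1 4-14. Only the named genes were searched, and the share of all genes with both was not counted. The count of 3 is thus not a result about the family.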

How the results depend on the processing

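The count of 0 ribosomal protein probes past an adjusted p of 0.05 stayed at 0 in every alternative except the error-weighted mean of Agilent log ratios, which gave 8. At an unadjusted p under 0.05, the 6 member probes became 29 with the replicate number as a block and 129 without replicate 1 of GATA1 4-14. The replicate number marks the dye orientation and nothing else in the labels, so it was not taken as a pairing; with the replicate block, 0 member probes passed an adjusted p of 0.05 and the mean median stayed at -0.14. The median over the family, -0.14 in the mean of the clones, ran from -0.34 to 0.0643 when 1 array was left out, which leaves the dyes unbalanced, and so did the median of the member probes in the brightest 10%, from -0.33 to 0.0559. That of GATA1 5-13 ran from -0.63 to 0.14 and that of GATA1 4-14 from -0.41 to 0.37, while the 1p members of GATA1 5-13 stayed below 0, from -1.32 to -0.37. The 3 genes with the same sign on all arrays became 6 with Agilent log ratios, with the value table and in the error-weighted setting, 0 with median centring, 3 to 21 without 1 array, and 24 and 7 on the arrays of GATA1 5-13 and GATA1 4-14 alone. GATA1 kept its direction throughout, and its adjusted p of 0.605 became 0.0493 for 4 arrays as 4 values (mean -0.39), 0.107 for the same with the replicate block, and 0.00268 in the error-weighted mean (-0.40). RPL22L1 ranged from 2.97 to 3.17 and RPL22 from -0.95 to -0.88 in GATA1 5-13 over all alternatives. Without the members of 1p the GATA1 5-13 median was -0.25, and for members under a log2 brightness of 16 it was -0.21, both chosen after seeing the data.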
